A study of Mus musculus with 12 samples.

Results

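E2A-HLF joins the activation domains of the E protein TCF3 to the DNA-binding domain of the PAR bZIP factor HLF, and arises in human B-precursor leukaemia. PRDM16 is a nuclear protein with zinc fingers and a PR domain, known for its part in blood stem cells and brown fat. The title of the series places it among histone methyltransferases and in tumor suppression. The comparison described here is between mouse bone marrow cells that received E2A-HLF with PRDM16 and cells that received E2A-HLF with a mutant form, PRDM16mut. It covers 4 of the 12 libraries of the series, 2 with PRDM16 and 2 with PRDM16mut, chosen by their labels and by the table that holds them.

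All 4 libraries came from lineage-negative (Lin-) bone marrow cells of C57BL/6 mice. Both groups carried E2A-HLF. The culture medium was IMDM with 15% FBS, to which IL3, IL6 and SCF were added, each at 10 ng/ml. Selection with G418 and puromycin lasted 10 days before collection. The labels do not give the change in PRDM16mut, the age of the mice, the vectors, or whether the libraries of a group were separate cultures. No library without either form belongs to this comparison, so a difference may come from PRDM16, from PRDM16mut or from both. The deposited values are FPKM, fragments per kilobase of transcript scaled between libraries in a way not given, for 23235 entries named by gene symbol. Of these, 10861 genes other than small RNAs reached 1 FPKM in 2 or more of the 4 libraries and were tested. Differences are given as log2(FPKM + 1) with PRDM16 minus PRDM16mut, so 1 is a 2-fold rise on that scale and -1 a 2-fold drop, and the scale understates the change of low genes. Called genes are those whose p from limma stayed under 0.05 after Benjamini-Hochberg adjustment over all genes tested. Exact permutation of 2 against 2 libraries cannot go below p = 0.333, so the calls rest on a spread that limma shares across genes, and this spread may be technical.

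Prdm16 measured 49.2 and 56.5 FPKM with PRDM16 against 56.6 and 43.5 with PRDM16mut. The groups overlapped and the log2 difference of 0.09 was not called (limma, adjusted p = 0.544). Without PRDM16mut replicate 1 it was 0.27 and was called (limma, adjusted p = 0.00188, with a range of 0.00188 to 0.961 over the alternatives). The table does not separate the introduced copies from the cells' own gene, so this value does not test which form a library carries. Summed over the table, the libraries held 578179 to 612952 FPKM. By the steps between low values, replicate 2 had 0.916 times the depth of replicate 1 with PRDM16 and 1.05 times with PRDM16mut, and the absolute depth is unknown.

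Cells with PRDM16 held more transcript of inhibitory and activating myeloid receptors, of stefins and serpins, and of chaperones of the endoplasmic reticulum. Most of the tested interferon-induced antiviral genes and MHC class I presentation genes fell, and so did the receptors Flt3 and Cd27 and the lactate dehydrogenase subunit Ldhb. Of the tested genes of mitosis 25% were called, and of the respiratory chain 17.8%. In all, 2695 genes were higher and 2487 lower with PRDM16. Together 47.7% of the genes tested were called, 24.8% higher and 22.9% lower. Of the calls, 73.6% were under 1.5-fold, and 604 genes passed with at least a 2-fold change (315 higher, which is 2.9% of genes tested, and 289 lower, 2.66%). Counts of called members in the lists below are to be read against these shares, and their medians against a median log2 difference of 0.01 over all genes tested. A gene can pass the filter on low values through 1 group alone, so the filter can enlarge the medians of the lists. Groups without overlap made up 74.0% of the tested genes. Changes of 8-fold or more on this scale were seen in 50 genes that rose and 8 that fell.

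**Figure D1:**
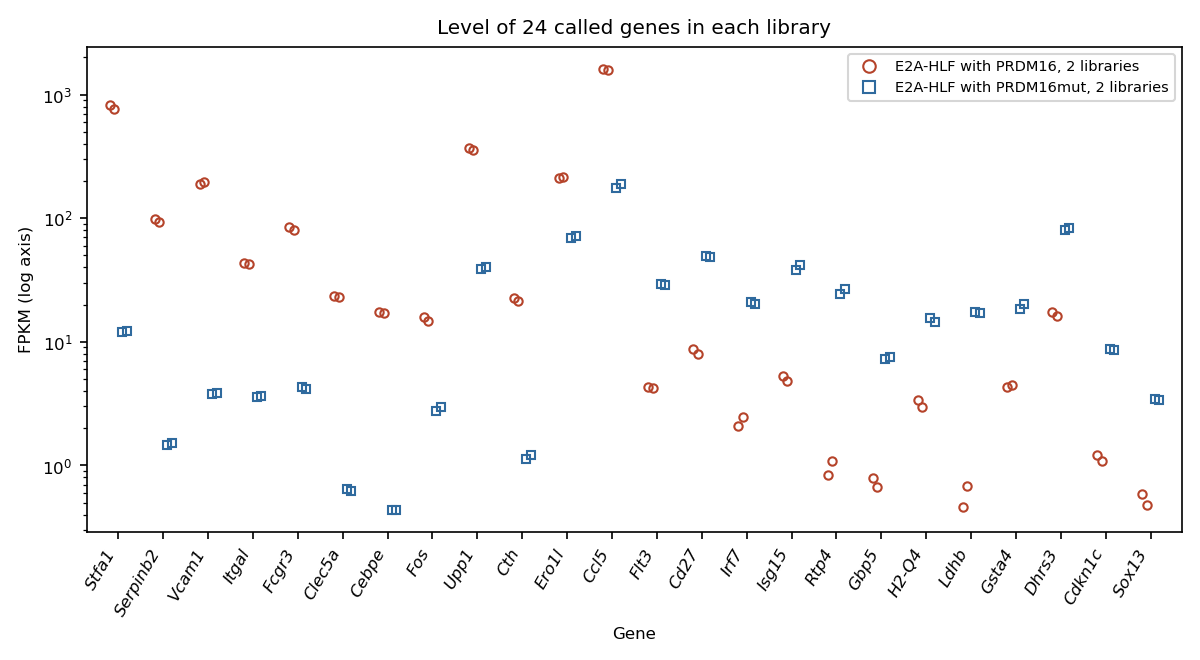
FPKM on a log axis of 24 called genes in each library, circles for the 2 PRDM16 libraries and squares for the 2 PRDM16mut libraries, with genes that rose on the left and genes that fell on the right. Libraries of a group lie close together and the groups do not overlap for any gene shown.

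Interferons are secreted proteins that signal through receptors, JAK kinases and transcription factors that bind the interferon-stimulated response element in promoters. The target genes make the cell resistant to viruses and increase antigen presentation. Of 59 interferon-induced antiviral effectors tested, 47 fell and 5 rose with PRDM16, and 32 fell at least 2-fold (median log2 difference -1.12). All 9 tested interferon-induced GTPases, which act on membranes around intracellular pathogens, fell at least 2-fold (median -1.40). The filter admits genes that reach 1 FPKM in the mutant libraries alone, which favours falls of this size. Without the filter, 14 of 19 GTPases were called lower and 0 higher (median -0.484). Of 63 effectors, 49 were then called lower and 6 higher (median -1.0). A fall of interferon genes in these cells was known when the lists were made, so the counts are a description and not independent support.

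Among the sensors and factors that start and carry the signal, 23 of 30 fell and 3 rose, 1 without PRDM16mut replicate 2 (median -0.54). Irf7, the factor that amplifies interferon transcription, measured 2.09 and 2.45 FPKM with PRDM16 against 20.9 and 20.2 with PRDM16mut (log2 difference -2.72, SE 0.069, adjusted p = 4.27e-09). Both PRDM16 libraries were far below either mutant library. Dhx58, a cytosolic RNA sensor, measured 3.17 and 2.93 against 16.6 and 15.5 FPKM (-2.07), and Zbp1, a sensor of left-handed nucleic acid, 0.696 and 0.746 against 5.36 and 6.01 FPKM (-1.96). Irf9, a factor that binds the response element, went from 18.5 and 19.2 FPKM in the mutant libraries to 6.72 and 6.23 with PRDM16 (-1.41). Usp18, a protease that removes ISG15 and damps the receptor, fell with them (-1.83). Of the listed interferons, Ifng was listed at 0 in all 4 libraries and Ifnb1 did not exceed 0.159 FPKM in any, and neither was tested.

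The effectors that fell most were Rtp4, Oasl2, Ifi27l2a (which may share reads with a near copy), Oas2, Isg15 and Ifi27l1. Isg15, a ubiquitin-like protein that is joined to other proteins, measured 5.32 and 4.83 FPKM with PRDM16 against 38 and 42.2 with PRDM16mut (-2.76, SE 0.067, adjusted p = 3.45e-09). Oas2, which makes the second messenger that activates RNase L, measured 0.47 and 0.479 against 13 and 12.2 FPKM (-3.2). Ifi27l1 measured 13.4 and 14.1 against 89.6 and 95.6 FPKM (-2.66). In each of them the mutant libraries were well above both PRDM16 libraries. Membrane proteins of the Ifitm family split: Ifitm3, which blocks viral entry, fell from 1037 and 1122 to 580.2 and 562 FPKM (-0.92), while Ifitm1 rose from 2419.7 and 2582 to 4043 and 3713 (0.63). The summed FPKM of the list, of which Ifitm1 gave the largest share, was 6075 and 5673 with PRDM16 against 5627 and 5958 with PRDM16mut, and here the groups overlap.

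Gbp5, a guanylate-binding protein, led the GTPases at 0.793 and 0.676 against 7.24 and 7.5 FPKM (-2.27). Gbp2 (-2.03), Irgm1 (-1.4) and Igtp (-1.29) fell as well. Tgtp2 (-1.88) and Gbp3 (-1.87) have near-identical copies in the mouse, and the assignment of reads between copies is uncertain.

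MHC class I molecules show peptides from inside the cell to T cells. Of 29 genes of this pathway 21 fell and 6 rose (median -0.49). B2m, the shared light chain, measured 644 and 612 against 1076 and 1173 FPKM (-0.84), and Psmb9, a subunit of the immunoproteasome that cuts the peptides, 65.5 and 64.4 against 119.6 and 127 FPKM (-0.91). Nlrc5, the transactivator of class I genes, measured 0.653 and 0.647 against 2.53 and 2.23 FPKM (-1.03). The H2-Q genes were lowest, H2-Q4 at 3.37 and 2.97 against 15.5 and 14.4 FPKM (-1.94), but they are near copies of each other and their separate values are uncertain. Among the 6 that rose was Calr, a chaperone of the endoplasmic reticulum that also loads class I, at 1042 and 1001 against 662 and 685 FPKM (0.60).

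The promoters of 4 of these genes are shown because each holds the interferon-stimulated response element. They are RefSeq sequences of GRCm38.p6, 250 bases before to 50 after the annotated start, 5′ to 3′ on the gene's strand, and capitals mark the response element, searched as GAAA, any 2 bases and GAAA on either strand. They were chosen after the values were seen. Isg15 lies at chr4:156200769-156201068 (minus strand), Rsad2 at chr12:26456403-26456702 (minus), Oas3 at chr5:120777610-120777909 (minus) and Gbp5 at chr3:142496684-142496983 (plus). Isg15 holds 3 overlapping matches, from base -78 to the last one starting at -66, and the other 3 promoters hold 1 each.
Isg15: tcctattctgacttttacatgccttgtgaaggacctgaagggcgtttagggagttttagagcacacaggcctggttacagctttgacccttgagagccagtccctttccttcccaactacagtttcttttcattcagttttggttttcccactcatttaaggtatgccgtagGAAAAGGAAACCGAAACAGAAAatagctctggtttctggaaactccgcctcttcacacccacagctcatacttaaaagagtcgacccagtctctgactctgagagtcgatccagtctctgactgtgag
Rsad2: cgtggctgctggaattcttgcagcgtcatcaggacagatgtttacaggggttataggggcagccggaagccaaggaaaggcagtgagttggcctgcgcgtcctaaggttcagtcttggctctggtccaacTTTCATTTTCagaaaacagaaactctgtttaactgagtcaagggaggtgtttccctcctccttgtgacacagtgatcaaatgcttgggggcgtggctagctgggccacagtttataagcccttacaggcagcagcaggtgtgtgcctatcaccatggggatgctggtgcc
Oas3: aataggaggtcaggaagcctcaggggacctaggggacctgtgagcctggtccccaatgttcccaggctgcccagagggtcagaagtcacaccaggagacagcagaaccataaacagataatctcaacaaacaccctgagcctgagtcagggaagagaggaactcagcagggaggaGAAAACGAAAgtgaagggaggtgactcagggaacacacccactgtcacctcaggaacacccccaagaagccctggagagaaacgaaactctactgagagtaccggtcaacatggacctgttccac
Gbp5: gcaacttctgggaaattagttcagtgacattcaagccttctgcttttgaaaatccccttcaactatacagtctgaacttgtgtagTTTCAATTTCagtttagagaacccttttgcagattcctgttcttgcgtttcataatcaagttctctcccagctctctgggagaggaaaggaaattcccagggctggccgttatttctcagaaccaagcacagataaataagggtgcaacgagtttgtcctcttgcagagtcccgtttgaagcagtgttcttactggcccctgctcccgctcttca

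Rsad2, an enzyme that makes a chain-terminating nucleotide, and Oas3, a relative of Oas2, are named for their promoters. Rsad2 measured 2.18 and 2.42 against 15.1 and 15.3 FPKM (-2.29) and Oas3 1.38 and 1.26 against 9.71 and 9.65 FPKM (-2.2). Of the tested genes, 8746 distinct genes had a promoter in the RefSeq table. The response element was present in a promoter of 3.66% of these and of 3.99% of all 27025 genes in the table. It was present in 34 of 230 genes that fell at least 2-fold (14.8%) and in 12 of 240 that rose at least 2-fold (5.0%). Of the 46 antiviral effectors with a promoter, 22 held it (47.8%), as did 8 of 9 GTPases (88.9%). The share by size of change was highest, at 14.8%, where log2 differences were -1 or less, and 3.02% between -0.25 and 0.25. A match of letters is a description and does not show binding.

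**Figure D2:**
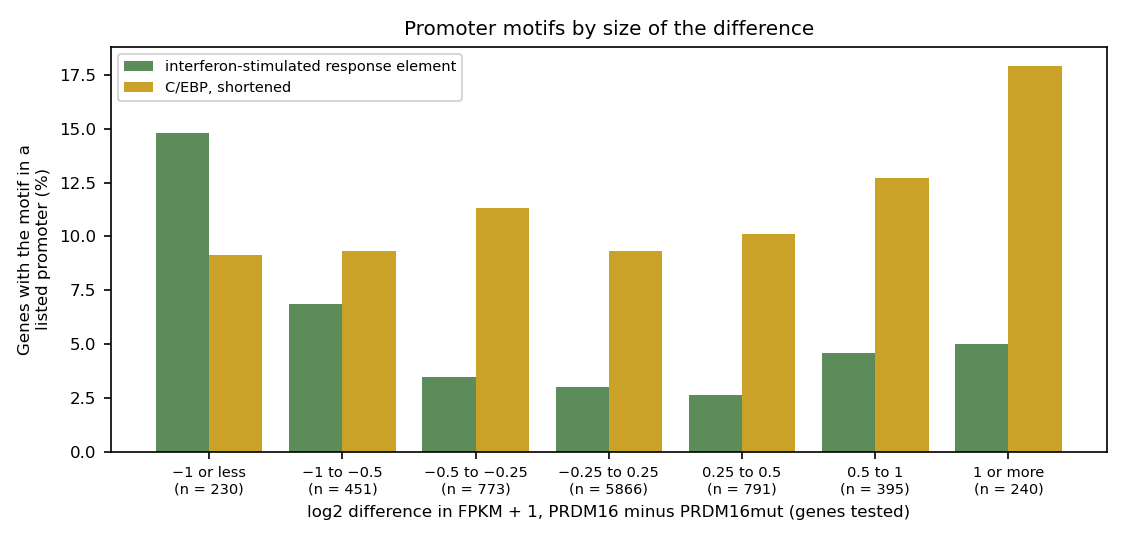
Percent of tested genes with a motif in a listed promoter (vertical axis), for 7 ranges of log2 difference (horizontal axis, number of genes below each), green for the interferon-stimulated response element and yellow for the shortened C/EBP motif. The response element is most frequent among the genes that fell most (14.8%) and the C/EBP motif among those that rose most (17.9%).

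Myeloid cells carry receptors for antibody, lectin ligands and sialic acid, in pairs that activate or inhibit through a few adaptors. Of 48 such genes tested 39 rose and 8 fell with PRDM16, 23 and 3 of them at least 2-fold (median log2 difference 0.97). Some of them reached 1 FPKM with PRDM16 alone. Without the filter on low values 43 of 80 were called higher and 14 lower (median 0.417). Fcgr3, the activating low-affinity receptor for IgG, measured 84.8 and 79.6 FPKM with PRDM16 against 4.33 and 4.12 with PRDM16mut (3.99, SE 0.054, adjusted p = 1.07e-10). Fcgr4, another activating IgG receptor, measured 14 and 14.3 against 0.639 and 0.706 FPKM (3.18). Their PRDM16 libraries were all far above their mutant libraries. Clec5a, an activating lectin, went from 0.648 and 0.624 FPKM with PRDM16mut to 23.6 and 23 (3.89), and Cd33, a Siglec, from 2.19 and 1.91 to 31.2 and 31.6 (3.41). Cd200r4 (2.95) and Cd200r3 (2.63) rose too, and these 2 related genes may share reads.

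Integrins are paired adhesion receptors. Of 13 tested 8 rose and 3 fell, and 5 rose at least 2-fold (median 0.26). Without the filter on low values 11 of 25 were called higher and 4 lower (median 0.0662). Itgal, the alpha chain of LFA-1, measured 43.3 and 42.9 FPKM with PRDM16 against 3.6 and 3.65 with PRDM16mut (3.25, SE 0.051, adjusted p = 2.68e-10). Its beta partner Itgb2 measured 58.5 and 56.6 against 17.5 and 17.8 FPKM (1.65), and Itgam, which pairs with the same beta chain, 12.3 and 12.7 against 2.81 and 2.7 FPKM (1.84). The summed FPKM of the list was 321 and 325 with PRDM16 against 196 and 190.2. Vcam1, an adhesion ligand for the integrin of Itga4, was the largest change among adhesion proteins at 188 and 197 against 3.77 and 3.83 FPKM (5.33), and Itga4 itself rose by 0.69. In the other direction the junctional proteins F11r (2.92 and 2.83 against 11.4 and 11.5 FPKM, -1.69) and Jam3 (4.65 and 5.02 against 16.8 and 15.3 FPKM, -1.54) fell, so that 8 of 21 adhesion genes rose and 10 fell (median -0.13).

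Receptors for chemokines, lipids and nucleotides were higher in 20 of 42 and lower in 10 (median 0.16). By at least 2-fold 9 were higher, and the lowest log2 difference was -0.74. With no filter on low values 25 of 73 were called higher and 10 lower (median 0.0572). Ccr2, which brings monocytes to CCL2, measured 49.1 and 50.4 against 9.15 and 9.84 FPKM (2.27), and Ccr1 14.6 and 14.5 against 1.22 and 1.22 FPKM (2.81). Ltb4r1, a receptor for leukotriene B4, rose by 2.34 and Adora3, an adenosine receptor, by 2.25. F2rl2, a thrombin receptor of the protease-activated family, measured 13.5 and 13.4 against 0.769 and 0.871 FPKM (2.99). In these 5 genes every PRDM16 library was above every mutant library.

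The cytokine receptors divided evenly, with 15 that rose and 15 that fell among 41 (median -0.06, and positive when only genes at 5 FPKM or more were kept). Flt3, the growth factor receptor of early progenitors and dendritic cell precursors, measured 4.29 and 4.2 FPKM with PRDM16 against 29.1 and 28.8 with PRDM16mut (-2.51, SE 0.053, adjusted p = 1.23e-09). Mertk, a receptor for apoptotic cells, fell from 33.4 and 30.4 to 8.48 and 9.54 FPKM (-1.72). Both chains of the IL18 receptor rose, Il18r1 at 7.79 and 8.67 against 0.481 and 0.448 FPKM (2.65) and Il18rap at 35.1 and 39.9 against 10.1 and 9.43 FPKM (1.83). Csf2rb, the shared beta chain for IL3 and GM-CSF, rose by 1.55, but its copy Csf2rb2 (1.53) is nearly identical and the split between them is uncertain. Of the ligands, 27 of 45 rose and 12 fell (median 0.23). Ccl5, a chemokine for T cells and monocytes, measured 1608 and 1589 FPKM with PRDM16 against 174 and 189.5 with PRDM16mut (3.13). Il6, a cytokine that was also in the medium as protein, measured 10.8 and 10.3 against 0.308 and 0.707 FPKM (2.95), and Lif 8.3 and 8.19 against 1.02 and 1.03 FPKM (2.19). Tnfsf10, the death ligand TRAIL, fell from 16.6 and 15.6 to 2.21 and 2.33 FPKM (-2.39). Cd27, a TNF receptor family member of lymphoid and progenitor cells, fell as well, from 49.7 and 48.4 to 8.83 and 7.92 (-2.42).

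Sensors of bacteria and inflammasome genes moved both ways, 12 higher and 6 lower of 27 (median 0.12). Cd14, the co-receptor for lipopolysaccharide, rose from 3.0 and 2.56 to 22.9 and 20.8 FPKM (2.6). Casp1, the protease that matures IL1B, went the other way at 0.536 and 0.282 against 9.07 and 8.69 FPKM (-2.82), and Casp4, the sensor of cytosolic lipopolysaccharide, at 1.97 and 1.67 against 5.47 and 5.74 FPKM (-1.23). Nlrp3, an inflammasome scaffold that recruits Casp1, rose in the same cells, 2.57 and 2.58 against 0.241 and 0.213 FPKM (1.54). Among the Notch, Eph, semaphorin and guidance genes 13 of 21 fell and 4 rose (median -0.27). When the filter was dropped 19 of 46 were called lower and 4 higher (median -0.0647). Plxnc1 led the falls (-1.34), with Sema4a the opposite at 35.9 and 34.5 against 5.27 and 5.22 FPKM (2.54). Procr, the protein C receptor used to mark blood stem cells, fell from 9.91 and 9.55 to 2.49 and 2.55 (-1.61).

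Stefins inhibit cysteine proteases such as cathepsins, and serpins inhibit serine proteases by trapping them. Of 30 protease inhibitors tested, 20 rose and 10 fell, so that every one was called, with 15 rising and 4 falling at least 2-fold (median 0.85). Stfa1 measured 820.0 and 764 FPKM with PRDM16 against 12 and 12.2 with PRDM16mut (5.92, SE 0.05, adjusted p = 1.60e-11). BC100530 (441 and 451 against 5.56 and 4.51 FPKM), Gm5483 (289.7 and 291 against 3.36 and 2.64 FPKM) and 2010005H15Rik (163 and 156 against 3.1 and 2.26 FPKM) belong to the same cluster of stefin copies. Reads can fall to any of these copies, so their separate values are uncertain, while the PRDM16 libraries were higher for each. Each copy is a member of the list, so the count of rises is not one of independent genes. The list was made with earlier results of these data known, so its counts are a description. The summed FPKM of the 49 inhibitors in the table was 2942 and 2838 against 891 and 943. With PRDM16, Stfa1 and the copies named here gave most of that sum. Serpinb2, an inhibitor of plasminogen activators, measured 97.7 and 92.3 against 1.47 and 1.51 FPKM (5.27). Serpini1, a serpin known from neurons, was the lowest of the list at 0.812 and 0.855 against 18 and 16.7 FPKM (-3.33).

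Matrix genes and metalloproteinases were 12 higher and 5 lower of 20 (median 0.50). Adam8, a membrane protease of myeloid cells, measured 55.7 and 54.1 against 5.31 and 5.25 FPKM (3.15), and Thbs1, thrombospondin, 58.2 and 62.1 against 16.6 and 15.4 FPKM (1.84). The basement membrane chains Col4a1 (2.75 and 2.92 against 13 and 12.2 FPKM) and Col4a2 (2.02 and 2.11 against 11.3 and 9.61 FPKM) fell together, by log2 differences of -1.83 and -1.9. These 2 genes share a promoter region in the genome.

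Among the listed transcription factors the largest rise was in Cebpe, a C/EBP factor of late granulocyte differentiation, at 17.6 and 17.2 FPKM with PRDM16 against 0.438 and 0.437 with PRDM16mut (3.67, SE 0.063, adjusted p = 4.39e-10). Cebpa (0.58), Cebpb (1.0) and Cebpd (0.98) rose by smaller amounts. The promoters of 3 genes that rose, and that hold the C/EBP letters TTGCNNAA, are shown in the same form with those letters in capitals. Whether C/EBP factors act on these genes was not tested. Ms4a3, a membrane protein of granulocyte precursors, lies at chr19:11640802-11641101 (minus strand), S100a9, a chain of calprotectin, at chr3:90695672-90695971 (minus), and Stfa1 at chr16:36276898-36277197 (plus). They were chosen after the values were seen.
Ms4a3: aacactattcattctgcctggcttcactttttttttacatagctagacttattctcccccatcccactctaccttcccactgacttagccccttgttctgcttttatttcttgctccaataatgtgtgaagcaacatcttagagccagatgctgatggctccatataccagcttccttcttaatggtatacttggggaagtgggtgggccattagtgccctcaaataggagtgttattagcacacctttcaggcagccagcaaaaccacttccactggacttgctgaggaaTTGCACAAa
S100a9: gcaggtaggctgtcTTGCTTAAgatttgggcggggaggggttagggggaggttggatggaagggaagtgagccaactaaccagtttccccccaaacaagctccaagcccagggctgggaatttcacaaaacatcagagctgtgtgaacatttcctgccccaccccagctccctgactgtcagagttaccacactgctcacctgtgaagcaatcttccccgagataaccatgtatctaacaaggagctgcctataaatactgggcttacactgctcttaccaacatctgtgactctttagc
Stfa1: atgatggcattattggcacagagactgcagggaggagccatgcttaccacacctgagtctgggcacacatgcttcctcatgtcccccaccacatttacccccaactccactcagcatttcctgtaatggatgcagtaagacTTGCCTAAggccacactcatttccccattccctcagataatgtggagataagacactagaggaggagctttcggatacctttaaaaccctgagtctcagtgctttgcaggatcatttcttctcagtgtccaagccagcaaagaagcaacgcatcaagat

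Each of the 3 holds 1 match, which starts at base 41 in Ms4a3, -236 in S100a9 and -109 in Stfa1. Ms4a3 measured 167 and 153 against 3.56 and 3.66 FPKM (5.12) and S100a9 190.1 and 171 against 5.4 and 6.73 FPKM (4.69). TTGCNNAA on either strand was present in a promoter of 9.94% of tested genes and 12.2% of all genes in the table. Among genes that rose at least 2-fold 43 of 240 held it (17.9%), and among those that fell at least 2-fold 21 of 230 (9.13%). With the full palindrome TTGCGCAA the shares were 0.417% and 0%, against 0.366% of tested genes. TTACNTAA, a motif of HLF and its PAR bZIP relatives, was present in 3.33% of genes that rose at least 2-fold, 1.74% of those that fell and 1.90% of tested genes. Here too a match of letters is a description and does not show binding.

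AP-1, ATF, MAF and NRF factors answer growth factors and stress. Of 27 tested 19 rose and 1 fell (median 0.46). Fosb measured 12.3 and 11.6 against 1.62 and 1.65 FPKM (2.3), Fos 15.9 and 14.6 against 2.75 and 2.96 FPKM (2.08) and Jun 7.49 and 8.17 against 2.33 and 2.42 FPKM (1.39). The KLF, SP and EGR factors divided evenly, with 6 that rose and 6 that fell among 18 (median -0.02). Those that rose included Egr1, a zinc finger factor induced by the same signals, from 19.7 and 19.5 to 54 and 53.3 FPKM (1.41). Klf2 rose from 6.47 and 7.69 to 24.9 and 24.3 (1.67). Dusp1, a phosphatase that shuts off MAP kinases, rose too (1.04), while Dusp7, another, fell at 19.6 and 19.7 against 48.8 and 48.9 FPKM (-1.27). Hif1a, the oxygen-regulated subunit of HIF1, measured 55.9 and 57.7 against 21.3 and 22.3 FPKM (1.34).

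Homeobox genes outside the Hoxa cluster were lower in 13 of 25 and higher in 5 (median -0.15). With no filter on low values 16 of 50 were called lower and 6 higher (median -0.0224). Satb1, a chromatin organiser of lymphoid and stem cells, measured 2.72 and 2.74 against 7.38 and 7.16 FPKM (-1.15), and Hopx, an atypical homeodomain protein, rose at 1.55 and 1.47 against 0.275 and 0.292 FPKM (0.97). Sox13 (0.588 and 0.482 against 3.46 and 3.41 FPKM, -1.53) and Sox4 (12.2 and 14.2 against 29.1 and 26.8 FPKM, -1.03), HMG-box factors of early lymphoid and progenitor cells, fell, and so did the E protein gene Tcf4 (-0.90). Ikzf2, an Ikaros factor, rose at 4.4 and 5.27 against 1.17 and 1.43 FPKM (1.34). Of 12 imprinted and oncofetal genes 9 fell and 1 rose, a rise not called without PRDM16mut replicate 1 (median -0.40). This median rests on the filter: without it 9 of 23 were called lower and 1 higher (median -0.0504). Cdkn1c, an imprinted inhibitor of cyclin-dependent kinases, measured 1.21 and 1.1 against 8.75 and 8.67 FPKM (-2.17), and Phlda2, an imprinted growth restrictor, 20.6 and 20.3 against 52.3 and 57.2 FPKM (-1.38).

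All tested members of 2 chromatin lists differed by less than 2-fold on the log2(FPKM + 1) scale. That scale understates the change of low genes, and Tet1 (below) differed by more than 2-fold in FPKM itself. Of 53 PRDM proteins, histone methyltransferases and Polycomb genes 10 rose and 10 fell, and of 57 histone demethylases, DNA methylation genes and deacetylases 13 rose and 14 fell. The medians were 0.0026 and -0.01, and the sign of the first turned under quantile normalization, median centring, a filter at 5 FPKM and without PRDM16 replicate 2, and that of the second without replicate 1 of either group. Without PRDM16 replicate 2 the first list had 6 called higher. Ezh2, the methyltransferase of Polycomb, measured 39.8 and 37.7 against 48 and 49.9 FPKM (-0.33), Dnmt3b, a DNA methyltransferase, 14.7 and 14.4 against 23.7 and 23.9 FPKM (-0.68) and Tet1, which oxidises methylcytosine, 0.523 and 0.54 against 1.58 and 1.47 FPKM (-0.72).

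**Figure D3:**
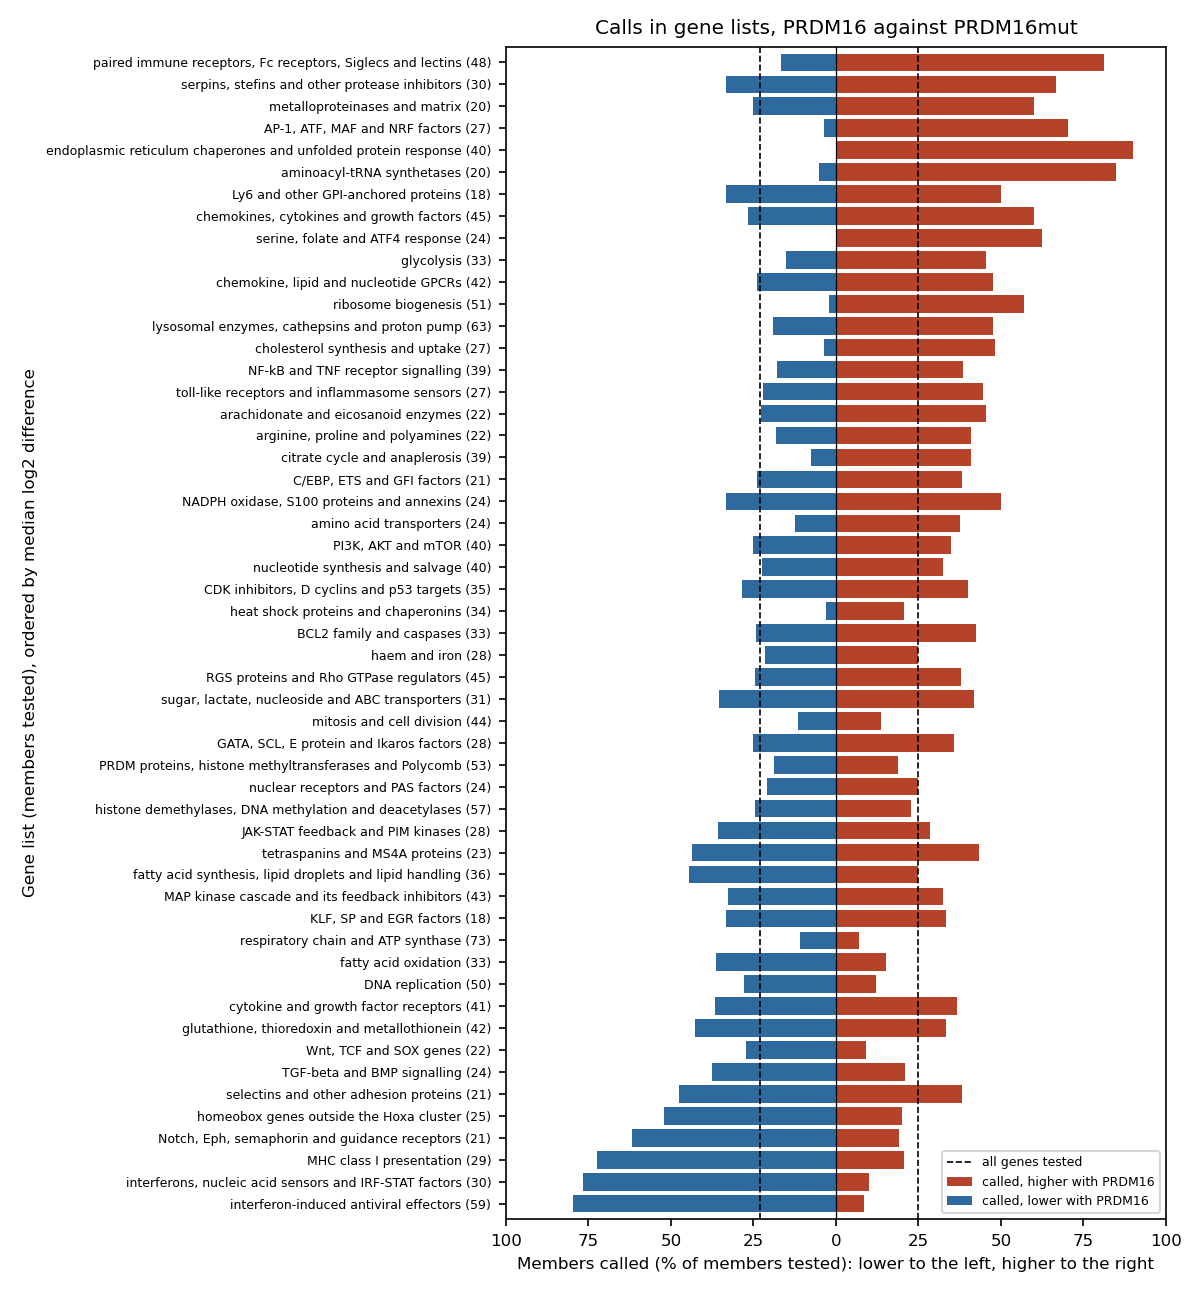
Members called higher (right) and lower (left) with PRDM16 as a percent of members tested, for gene lists of at least 18 tested members ordered by median log2 difference, with dashed lines at the shares over all genes tested (24.8% higher and 22.9% lower). The lists of paired immune receptors, protease inhibitors and endoplasmic reticulum chaperones extend well past the right dashed line, those of interferon sensors, antiviral effectors and MHC class I presentation past the left one, and the respiratory chain and mitosis lists stay inside the dashed lines on both sides.

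In metabolism an enzyme of uridine and a subunit of lactate dehydrogenase were among the larger changes. Upp1, uridine phosphorylase, which splits uridine into uracil and a sugar phosphate, measured 368 and 353 FPKM with PRDM16 against 38.8 and 40.03 with PRDM16mut (3.16, SE 0.047, adjusted p = 1.98e-10). Ldhb, the lactate dehydrogenase subunit found in oxidative tissues, measured 0.459 and 0.689 FPKM with PRDM16 against 17.5 and 17.1 with PRDM16mut (-3.54, SE 0.08, adjusted p = 2.13e-09). The groups of both were far apart. Among 33 glycolysis genes 15 rose and 5 fell, 8 after median centring (median 0.17), with Pygl, glycogen phosphorylase, at 90.8 and 91.7 against 43.1 and 44.5 FPKM (1.04), Hk3, a hexokinase of myeloid cells, at 228 and 217 against 141 and 133 FPKM (0.70) and Eno1, enolase, at 383 and 368 against 250.5 and 246 FPKM (0.59). In the pentose phosphate and NADPH list 7 of 12 rose (median 0.24), among them G6pdx, its first enzyme (0.69), while malic enzyme Me1 fell (-1.3).

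Serine, folate and ATF4-response genes rose in 15 of 24 and fell in none (median 0.19, limma). At an unadjusted p under 0.05, 15 rose and 0 fell, and after quantile normalization 3 were called lower. Cth, which makes cysteine from cystathionine, was far ahead at 22.5 and 21.5 against 1.12 and 1.22 FPKM (3.41). Mthfd2, a mitochondrial folate enzyme, measured 98.5 and 95.4 against 52.3 and 56.6 FPKM (0.82), Asns, asparagine synthetase, 132 and 132 against 79.1 and 81.6 FPKM (0.71) and Chac1, which degrades glutathione, 24.6 and 22.8 against 12 and 11 FPKM (0.98). Of the 20 aminoacyl-tRNA synthetases, which charge tRNAs with amino acids, 17 rose and 1 fell, all by less than 2-fold (median 0.26). The fall (Vars, named after its value was seen) was not called without PRDM16 replicate 2 or PRDM16mut replicate 1, and the largest rise was that of Nars at 192 and 191 against 127 and 129 FPKM (0.58). The amino acid transporters rose in 9 of 24 and fell in 3, with Slc7a8 at 36.8 and 37.7 against 6.08 and 6.66 FPKM (2.38) and the paired chains Slc7a5 (0.76) and Slc3a2 (0.61) smaller.

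Proteins bound for granules, lysosomes and the surface fold in the endoplasmic reticulum. Of 40 chaperones and unfolded-protein-response genes 36 rose and none fell (median 0.42, limma), no member had a negative difference, and at an unadjusted p under 0.05 37 rose and 0 fell. This was the highest share in 1 direction among lists with at least 20 tested members. Ero1l, the oxidase that recycles disulfide isomerases, measured 210.3 and 215 FPKM with PRDM16 against 69.4 and 72.4 with PRDM16mut (1.57, SE 0.047, adjusted p = 1.05e-08). Edem1, which hands misfolded glycoproteins to degradation, measured 62.4 and 65.7 against 22.6 and 23.2 FPKM (1.44), and P4hb, a disulfide isomerase, 534 and 529 against 316 and 325 FPKM (0.73). The stress sensor Ern1 rose less (13.6 and 15.6 against 9.49 and 7.61 FPKM, 0.71). The summed FPKM of the list was 6045 and 5893 against 4197 and 4417. Lysosomal genes rose in 30 of 63 and fell in 12 (median 0.13), with Atp6v0a1, a proton pump subunit, at 22.4 and 21.8 against 6.16 and 6.72 FPKM (1.63) and the cysteine proteases Lgmn at 0.849 and 0.784 against 6.51 and 6.95 FPKM (-2.09) and Ctss at 6.66 and 6.62 against 19.6 and 22.7 FPKM (-1.53) opposite.

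**Figure D4:**
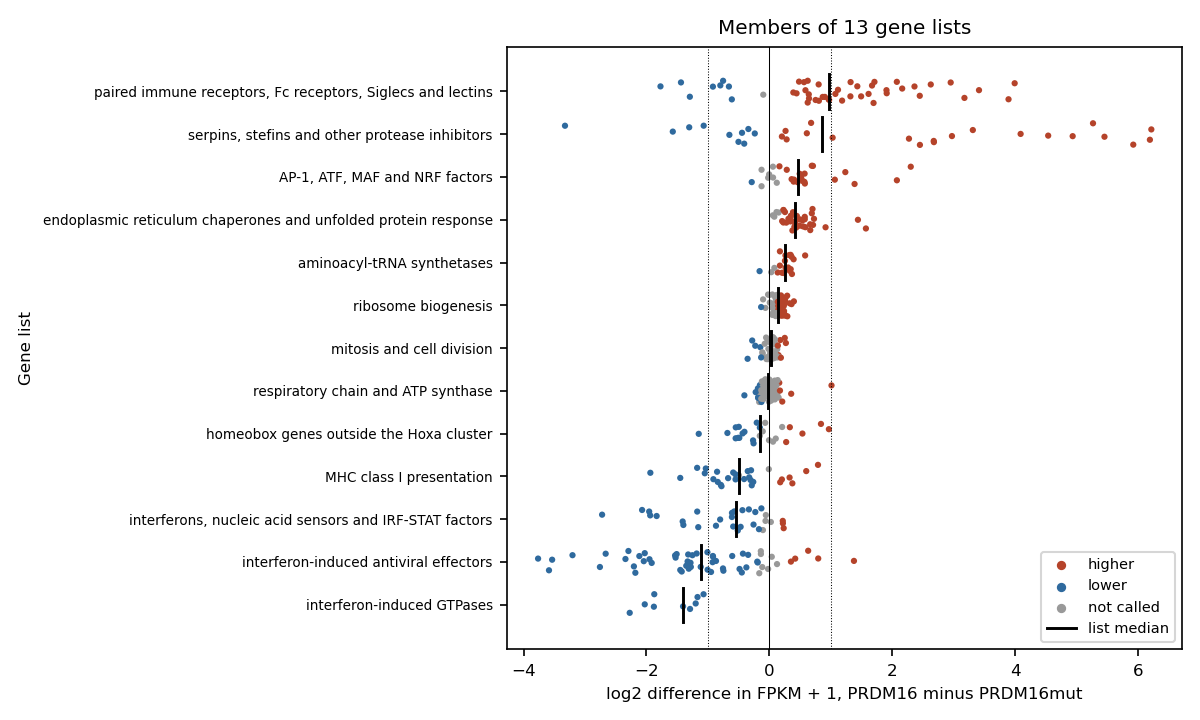
Log2 difference of each tested member (points, red higher, blue lower, grey not called) of 13 gene lists, with the list median as a black bar and dotted lines at -1 and 1. The medians of the 3 interferon lists lie left of 0, although 5 antiviral effectors and 3 sensors were called higher. Paired immune receptors and protease inhibitors reach furthest to the right, up to 6.22, and most genes of mitosis and the respiratory chain lie near 0.

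In the cholesterol synthesis and uptake list 13 of 27 genes rose and 1 (Srebf2, named after its value was seen) fell, a fall not called without PRDM16 replicate 1 (median 0.13). Those that rose included Fdps (213 and 204 against 136 and 143 FPKM, 0.58), which makes farnesyl diphosphate, and Cyp51 (0.57), which removes a methyl group from lanosterol. Of 22 arachidonate and eicosanoid enzymes 10 rose and 5 fell, 3 without PRDM16mut replicate 2 (median 0.12). Alox5, the first enzyme of leukotriene synthesis, rose from 4.8 and 5.47 to 24.8 and 24.2 FPKM (2.06), its helper Alox5ap from 99.5 and 106 to 177 and 169 (0.75) and Lta4h, which makes leukotriene B4, from 106 and 111 to 195 and 193 (0.83). Of 36 genes of fatty acid synthesis and lipid handling 9 rose and 16 fell (median -0.02, and positive when only genes at 5 FPKM or more were kept). Dgat2, which completes triglycerides, rose at 5.38 and 5.41 against 0.943 and 0.924 FPKM (1.73), while Fads3 (-1.42) and Apoe (7.02 and 5.9 against 17.9 and 17.1 FPKM, -1.31) fell. Fatty acid oxidation genes were lower in 12 of 33 and higher in 5 (median -0.06). Without PRDM16 replicate 1 they were 9 lower and 2 higher, without PRDM16 replicate 2 they were 8 and 3, and after quantile normalization 13 and 2. The retinoid enzymes Dhrs3, which reduces retinal to retinol, and Dhrs9, which oxidises retinol, went in opposite directions, Dhrs3 at 17.5 and 16.2 against 81 and 83.8 FPKM (-2.23) and Dhrs9 at 20.3 and 23 against 3.0 and 2.73 FPKM (2.55).

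Glutathione, thioredoxin and metallothionein genes were higher in 14 and lower in 18 of 42 (median -0.08). Mgst2, a microsomal transferase that can also make leukotriene C4, measured 229 and 215 against 60.2 and 63.8 FPKM (1.82) and Gstm1 93.2 and 92.3 against 34 and 33.5 FPKM (1.43). Gsta4, which detoxifies lipid aldehydes, fell at 4.27 and 4.48 against 18.5 and 20.3 FPKM (-1.92). Mt2, a metal-binding protein, had one of the largest drops in absolute level, 530.2 and 501 against 993 and 1064 FPKM (-1.0). Of 28 haem and iron genes 7 rose and 6 fell (median 0.04). Alas1, the first enzyme of haem synthesis outside red cells, rose from 10.5 and 10.5 to 25 and 24.2 FPKM (1.15), and Hp, haptoglobin, from 2.46 and 1.86 to 32.4 and 31.6 (3.39).

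The respiratory chain and ATP synthase had 5 higher and 8 lower of 73 (median -0.03, and its sign turned when replicate 2 of either group was left out). The 8 lower became 35 after quantile normalization, 17 after median centring, 19 without PRDM16mut replicate 1 and 2 without replicate 2 of either group, so that this count rests on the scaling and on single libraries. The 5 higher became 14 without PRDM16mut replicate 2 and 2 without PRDM16 replicate 1. One subunit stood apart: Ndufa4, now known as part of cytochrome oxidase, measured 1214 and 1129 against 562 and 599 FPKM (1.01, SE 0.066, adjusted p = 2.05e-06). Mitosis genes were higher in 6 and lower in 5 of 44 (median 0.03, negative after quantile normalization or median centring, with 3 higher under each, and with 3 lower when replicate 2 of either group was left out), and DNA replication genes higher in 6 and lower in 14 of 50 (median -0.06, with 9 lower when PRDM16 replicate 1 or 2 was left out and 23 after quantile normalization). Ribosome biogenesis genes rose in 29 of 51 and fell in 1 (Polr1c, named after its value was seen), a fall that was not called when any library was left out, by log2 differences of 0.40 at most (median 0.14). Of 13 genes of the Myc network 2 rose and 1 fell (median 0.11). Without PRDM16 replicate 1 or PRDM16mut replicate 2 there were 4 higher, and without PRDM16 replicate 2 the median turned negative. Myc itself measured 183 and 178 against 161 and 163 FPKM (0.16), a call that was lost after quantile normalization, with a replicate block and without PRDM16 replicate 1 (limma, adjusted p = 0.153) or 2 (0.0791, with a range of 0.0187 to 0.153 over the alternatives).

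Survival genes and cell cycle inhibitors included some large single changes. Bcl2a1b, an antiapoptotic BCL2 relative, measured 30.1 and 33 against 1.63 and 1.82 FPKM (3.58) and Bcl2a1a 9.92 and 11.4 against 0.296 and 0.527 FPKM (3.05), and reads of these copies cannot be separated with certainty. Perp, a membrane protein of the p53 response, rose from 6.48 and 7.72 to 45.6 and 42.5 FPKM (2.48). Cdkn2a, the locus of the inhibitors INK4A and ARF, measured 59.3 and 58.5 against 32.6 and 35.7 FPKM (0.77). Of 35 cell cycle inhibitors, D cyclins and p53 targets 14 rose and 10 fell (median 0.07).

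Signalling lists held few large changes. MAP kinase genes were 14 higher and 14 lower of 43, and PI3K, AKT and mTOR genes 14 and 10 of 40. Pim2, a survival kinase induced by cytokines, fell at 58.3 and 56.1 against 122 and 128 FPKM (-1.11). Foxo1, a factor that AKT keeps out of the nucleus, fell at 3.45 and 2.99 against 8.68 and 8.66 FPKM (-1.2). Prkcb, a protein kinase C, rose at 8.42 and 9.84 against 2.05 and 2.06 FPKM (1.72). Of 24 TGF-beta and BMP genes 5 rose and 9 fell (median -0.11). The largest rise among them was that of Tgfbr2, a TGF-beta receptor chain, at 44.6 and 45.3 against 23.5 and 22.2 FPKM (0.95).

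By absolute level, the largest rises after Ccl5 were Ly6c2, a surface protein of monocytes, at 3155 and 2966 against 1600.3 and 1735 FPKM (0.88), Ifitm1 and Srgn, the proteoglycan of granules, at 1751 and 1657 against 835 and 909 FPKM (0.97). The largest drops were Ly6a, the stem cell antigen Sca-1, at 1339 and 1258 against 2493 and 2674 FPKM (-0.99), Mt2, Ifitm3, B2m and Myl10, a myosin light chain, at 249.6 and 239 against 684 and 696 FPKM (-1.49). Ly6 genes are close relatives, and reads may be split between copies. Genes of high rank that lay outside the lists were Foxred2, a flavoprotein of endoplasmic reticulum degradation, which fell from 143 and 135 to 10.7 and 10.7 FPKM (-3.58), Tfpi, the tissue factor pathway inhibitor, which rose at 22.7 and 19.7 against 0.0408 and 0.119 FPKM (4.36), and Gkn3, a gastrokine, which fell at 8.59 and 8.79 against 59.1 and 59.3 FPKM (-2.64).

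Markers of other cell types were measured beside these lists. Pax5, Ms4a1, Cd3e, Cd3g and Ncr1 were at or below 0.0173 FPKM in every library. Of 16 B cell markers 1 was tested and of 20 T and NK markers 4. In FPKM, the 15 dendritic markers summed to 109 and 106 (PRDM16) against 292 and 299 (PRDM16mut), of which Bst2, itself interferon-induced, gave 96.7 and 92.9 and 237 and 242. Of 6 dendritic markers tested 5 fell and 1 (Itgax) rose, a rise not called when any library was left out, while the defining markers Siglech, Xcr1 and Zbtb46 stayed at or below 0.335 FPKM in all 4 libraries. The 23 mast cell, basophil and eosinophil markers had 8 higher and 2 lower of 10 tested (1 lower without PRDM16 replicate 1 or PRDM16mut replicate 2), with summed FPKM of 221 and 217 against 155 and 161, while the tryptase Tpsab1 was listed at 0 in all 4 and Mcpt4 at 0.0916 or less. Of 10 erythroid markers tested 4 rose and 1 fell (median 0.20), with 3 lower when PRDM16 replicate 1 or 2 was left out and 2 lower when PRDM16mut replicate 1 or 2 was. The summed FPKM of the erythroid list went the other way, 619 and 629 against 944 and 1043. Only the 1 marker called lower fell at least 2-fold (-1.67), so this sum does not describe the list as a whole. Megakaryocyte markers summed to 801 and 770.4 against 727 and 784, which overlap. All 3 tested stromal and endothelial markers, Vcam1, Pecam1 and Thy1, rose (median 0.75), and the summed FPKM of the list was 339 and 352 against 92.2 and 95.1. The other markers of this list stayed under 1 FPKM except Acta2, at 1.73 in PRDM16 replicate 2. In a bulk library fewer cells of a type and less RNA per cell cannot be told apart, and the part of cell mixture in the lists above was not tested.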

How the data were processed

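Per the labels' protocols, Trizol and a column were used for RNA, and TruSeq v2 with oligo(dT) for the libraries. The authors deposited FPKM per gene symbol and library. Per the submitters' processing notes the tools were Bowtie2 2.0.0.7, TopHat2 2.0.3 and Cuffdiff on mm9, while the Cuffdiff version, the annotation and the scaling were not given in the sources used here. No read counts are in the table. Within a group, 87.4% of the ratios between replicates of genes under 0.05 FPKM were ratios of whole numbers (within 0.5%) after 1 factor, which gives the relative depth printed, so no interval or floor for counting was computed.

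The 4 libraries of the E2A-HLF table were fitted alone as log2(FPKM + 1) in R 4.3.3 with limma 3.58.1 (group means, variance trend, two-sided, Benjamini-Hochberg adjustment over 10861 genes). The filter was 1 FPKM or more in 2 or more libraries, and 149 small RNA entries that passed it were left out. The procedure was tested on simulated data. These had independent libraries with the same spread within groups, far fewer changed genes and no culture or batch effect. The simulation therefore cannot show whether the spread behind the calls is technical. The members and the 69 gene lists were chosen with earlier results of these data known. Named genes are Prdm16, the 20 highest and 20 lowest called genes with groups that do not overlap (clone and predicted names and date-like symbols passed over), the 10 largest rises and 10 largest drops in mean FPKM, and up to 6 called members of each list. Promoters and matched symbols (8752 of 10861 tested) come from RefSeq on GRCm38.p6, and no coordinate of the mm9 table was used. The 14 alternatives covered pseudocount, filter, scaling, variance model, small RNAs, the replicate block and each library left out.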

Additional observations from a re-analysis of the deposited data

How the results depend on the processing

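All 5182 called genes that were tested again kept their direction under each of the 14 alternatives. For many of these the outcome was fixed in advance. The filter, variance model, small RNA and replicate block settings leave each log2 difference as it was. Another pseudocount or a library left out cannot turn a gene whose groups do not overlap. The same limit holds for the direction of the named genes below. At an FPKM of at least 5, with 8389 genes tested, 401 genes were called with at least a 2-fold change in place of 604. With a pseudocount of 0.1 there were 905, and with 0.5 there were 745. Calls higher and lower were 2363 and 3039 after quantile normalization and 2244 and 2976 after median centring, so the share of calls that were higher went from 52.0% to 43.7% and 43.0%. Leaving out each library in turn gave 2387 to 2543 higher, 2119 to 2427 lower and 610 to 619 with at least a 2-fold change, the lone library being assumed to vary like the other group. The replicate numbers are shared by the labels of both groups. Across 10861 genes, the difference between replicates 1 and 2 in 1 group correlated with that in the other at 0.0975 (Pearson). The labels name no shared animal or batch, so the numbers were not taken to pair the libraries. The alpha globin copies did follow the replicate number in both groups. With a replicate block 2531 genes were higher, 2364 lower and 605 changed at least 2-fold. Of 418 named genes with a fit, 404 kept their side of the threshold under every alternative in which they were tested and none reversed, but 88 were not tested at an FPKM of at least 5. The median of 16 lists changed sign under at least 1 alternative, all with a median of 0.114 or less in size. The cause of these shifts was not tested. The absolute depth is unknown, so low genes have no counting limit here, and only the FPKM scale limits their fold changes.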

Other observations

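Both partners of the fusion have a gene of their own in the table, and the deposited values do not separate fusion transcripts from them. Hlf measured 14.9 and 14.9 FPKM with PRDM16 against 17 and 15.9 with PRDM16mut, a log2 difference of -0.14 (limma, Benjamini-Hochberg adjusted p = 0.0648). Tcf3 measured 169 and 166 FPKM with PRDM16 against 203 and 171 with PRDM16mut, a difference of -0.15 (adjusted p = 0.116). These genes were chosen for their part in the fusion.

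The alpha globin copies Hba-a1 and Hba-a2 swapped between replicates of both groups. Hba-a1 measured 18.5 and 0.115 FPKM with PRDM16 against 10.2 and 0.0129 with PRDM16mut, and Hba-a2 measured 0.029 and 18 FPKM with PRDM16 against 0.0476 and 12.4 with PRDM16mut. In each library 1 copy held nearly all of the signal, and it was Hba-a1 in replicate 1 and Hba-a2 in replicate 2. Neither was called.

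Small RNA entries were left out of all counts above. When the 149 entries that passed the filter were kept, 20 were called higher and 29 lower, with log2 differences from -9.55 to 6.97. Their median spread within a group was 0.518 on the log2 scale, against 0.0524 for the 10861 other genes.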
